A study of Mus musculus with 7 samples.

Results

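The genes described here are the ion channels, pumps and other ion-annotated genes of mouse testis whose RNA differed between wild-type and Ctcf-deleted mice. A coding gene was taken as a member when a Gene Ontology process term of its table row contained "ion transport", "ion transmembrane transport", "calcium ion", "potassium ion" or "sodium ion". Solute carriers (symbols that begin with Slc) were left out, as were genes with a term of spermatogenesis, fertilization, capacitation, immune or inflammatory processes. Of 3997 coding genes with a symbol in the table, 107 were members.

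The study compared testis RNA of 3 wild-type and 4 Ctcf-cKO adult mice on the Affymetrix mouse transcriptome array (MTA 1.0). In Ctcf-cKO mice (Stra8-iCre-Ctcf f/Δ), 1 Ctcf allele was floxed and the other already deleted, and a Cre recombinase was driven by the Stra8 promoter, which is active in spermatogonia and in spermatocytes about to enter meiosis. In the study's stainings, spermatocytes and spermatids lacked CTCF, and spermatogonia, Sertoli cells and Leydig cells still had it. The wild-type mice were littermates of genotype Ctcf f/f, wt/f or wt/wt, and all mice had the background spelled C56BL/6J in the study's methods. The labelled material was seminiferous tubules from testes without the tunica albuginea, stored in RNAlater before RNA was extracted.

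Ion channels let ions pass down their gradients, and pumps spend ATP to build those gradients. In the testis, sperm depend on channels of their own, such as the CatSper calcium channel and the potassium channel KCNU1 (SLO3), and on a sodium pump with a germ-cell alpha subunit. The somatic cells around the germ cells use the widely expressed pumps, the acidifying pumps of lysosomes and the hormone-triggered calcium release that many tissues share.

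The table held 1 average log2 array signal for each genotype and no single-array values, so the differences below are Ctcf-cKO minus wild-type averages, without an error or a test, and the number of arrays limits their precision. Every row had been kept by the authors for a difference of at least 2-fold and an unadjusted p of 0.05, and genes without a row, among them Ctcf, were not analysed here. RNA came from tubules as a mixture of cell types, in which fewer cells of a type and less RNA per cell cannot be told apart.

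Most members were higher in Ctcf-cKO testes. Of the 107, 31 (29.0%) were lower, beside 61.3% of all coding genes of the table, and 76 (71.0%) were higher, beside 38.7%. At a difference of at least 3-fold, 5 members (4.67%) were lower, beside 7.98% of all coding genes, and 13 (12.1%) were higher, beside 10.3%. The median difference of the lower members was -1.35 (2.55-fold), with a range from -1.81 to -1.01, and the median over all lower coding genes was -1.29. The median of the higher members was 1.37 (2.58-fold), with a range from 1.04 to 2.18, and the median over all higher coding genes was 1.33.

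The larger share of higher members was seen in both annotation classes of the array. In the class of coding transcripts alone, 24 of 40 members (60.0%) were higher, beside 24.9% of all genes of that class. In the class of loci with coding and non-coding transcripts, 52 of 67 (77.6%) were higher, beside 51.0%. Among the genes that carry the words of the rule but were left out for a reproductive or immune term, 7 were lower and 8 higher, and with them the higher share came to 68.9% of 122 genes. The 7 were the sperm genes Catsper1, Catsper2, Catsper3, Catsper4, Aqp7, Atp1a4 and Plcz1, and the 8 included the luteinizing hormone receptor Lhcgr, at 7.14 in wild-type mice and 10.11 in Ctcf-cKO mice. These genes were named after their values were seen. Of the 22 solute carriers with the words of the rule and no excluded term, 9 were lower and 13 higher (59.1%), and the 3 with an excluded term were all lower.

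The label of channels and pumps covered only part of the members. A Gene Ontology function term, which the rule did not use, named channel activity for 32 members (29.9%) and a pump or ATP synthase for 7 (6.54%), together 39 (36.4%), beside 1.75% of all coding genes. Of these 39 members, 18 were lower and 21 higher, and of all 70 coding genes with such a term 33 were lower and 37 higher. The other 68 members included pump subunits without such a term (Atp6v0a1, Atp6v0e, Atp5g2, Atp5g3 and Atp1b2), carriers, auxiliary proteins, respiratory chain subunits, receptors, kinases and calcium-binding proteins. Map1b, which codes for a microtubule protein, met the rule only because "mitochondrion transport" contains its words.

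The scale of the comparison bears on the lower members. The median difference over all 7580 rows was -1.145, because most rows of the filtered table were lower. With that median set to 0, which is called re-centring here, 26 of the 31 lower members were still below 0, none of them by 2-fold, and all 76 higher members were past 2-fold. Of all 2450 lower coding genes, 1877 were still below 0. The 5 that changed sign included Kcnmb4, Kcnip4, Atp8b3 and Tmem63c, with re-centred differences from 0.04 to 0.14. Re-centring shifts every gene by the same amount, so it shows only which differences are larger than that shift. The filter left no row within 2-fold, so the median reflects which side held more rows and does not measure an offset between arrays. Every higher gene thus passes 2-fold after the shift by construction. A changed sign marks a difference smaller than the shift and is no measure of how reliable a gene's difference is. The differences that follow are as deposited.

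**Figure D1:**
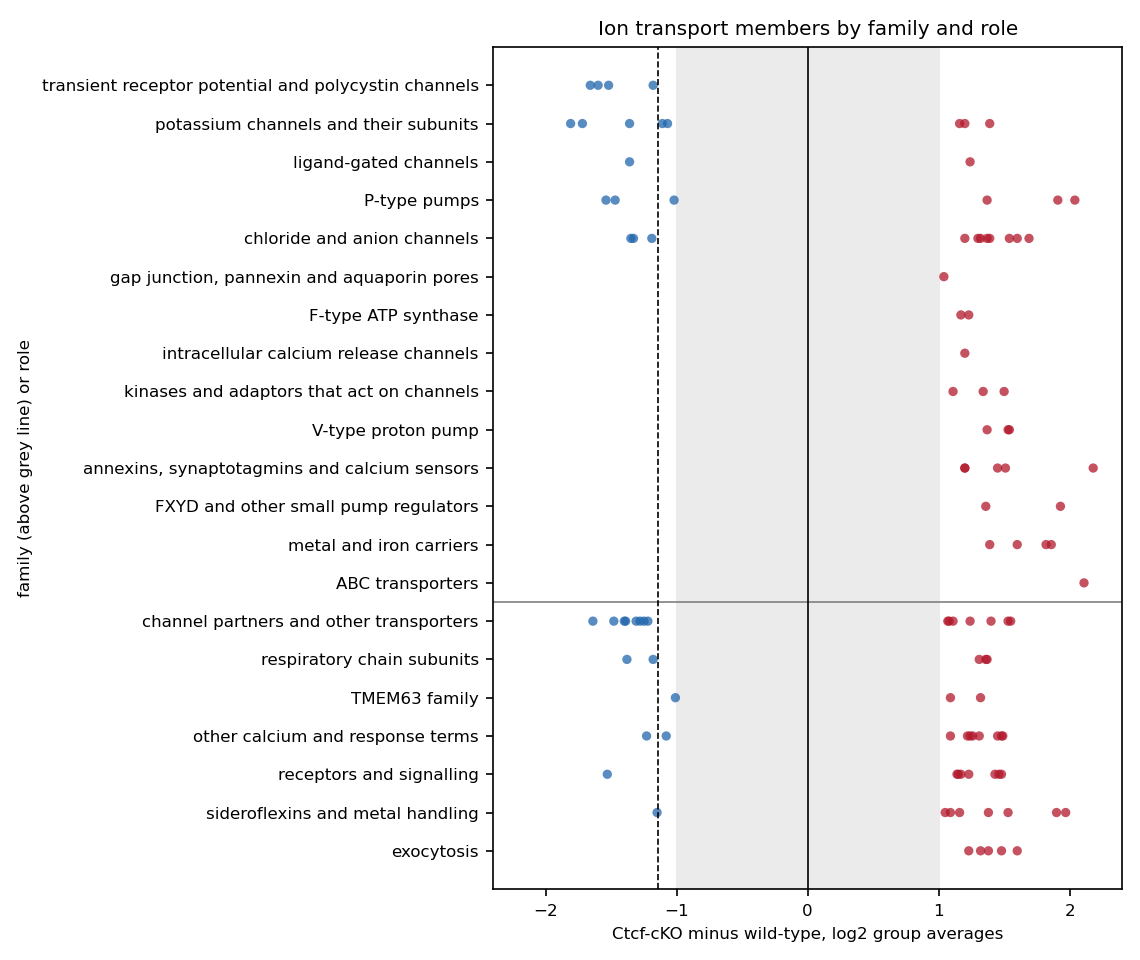
Differences of the log2 group averages (x axis, Ctcf-cKO minus wild-type) of the 107 members, 1 point each, by family above the grey line and by role below it; blue marks lower and red higher members. The grey band is the range within 2-fold that the table leaves out, and the dashed line is the median of all rows at -1.145, right of which 5 lower members change sign after re-centring. The 4 transient receptor potential and polycystin members are all lower, and 9 families hold higher members only.

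Of 16 gene families set by symbol, 14 had members, 53 in all. In 9 families every member was higher, in 1 every member was lower, and 4 had members on both sides.

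The transient receptor potential and polycystin channels, a family of calcium-permeable cation channels and the large receptors that pair with them, had 4 members, all lower and all still below 0 after re-centring. Pkdrej, a polycystin relative found on sperm (chr15:85814676-85821734), averaged 8.86 in wild-type mice and 7.20 in Ctcf-cKO mice, a difference of -1.66 (3.16-fold). Pkd1l3, a polycystin relative also known from taste cells (chr8:109614517-109674386), averaged 9.19 and 7.59, a difference of -1.60 (3.03-fold). Pkd2l2, a channel-type polycystin of male germ cells, averaged 9.10 and 7.58 (-1.52). Pkdrej and Pkd2l2 are best known from male germ cells, whereas Trpc1 is a broadly expressed cation channel subunit; it averaged 6.74 and 5.56 (-1.18). Genes outside the rule whose symbols begin alike, not all of which code for channels, went the other way. Trpm7, Trpc5os, Pkd2 and Pkdcc were all higher, by 1.18 to 1.34, among them Pkd2, the channel mutated in polycystic kidney disease, at 7.45 and 8.76.

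Potassium channels and their subunits split by gene, with 5 lower and 3 higher members. Kcnj9, an inward rectifier gated by G proteins (chr1:172320504-172329263), had the largest difference of the lower members, from 8.78 in wild-type mice to 6.97 in Ctcf-cKO mice (-1.81, 3.51-fold). Kcnu1, the pore of the sperm potassium channel (chr8:25849623-25937934), averaged 9.86 and 8.14 (-1.72, 3.29-fold). Lrrc52, the auxiliary subunit of that channel in sperm, was lower as well, at 9.47 and 8.07 (-1.40); it is named here after its values were seen. Both parts of the sperm potassium channel were on the lower side.

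Kcne3, a small membrane-spanning subunit of voltage-gated channels, averaged 9.72 in wild-type mice and 8.36 in Ctcf-cKO mice (-1.36). Auxiliary subunits made up the rest of the lower group. Kcnmb4, a beta subunit of the large-conductance calcium-activated channel, averaged 8.21 and 7.10 (-1.11), and Kcnip4, a calcium-binding partner of Kv4 channels, averaged 7.05 and 5.98 (-1.07), and both changed sign after re-centring. For Kcnmb4 and Kcnip4, 1 pore that each can serve was on the other side, and other pores that they may serve were not compared. Kcnd3, a Kv4 pore, averaged 6.89 and 8.09 (1.20), and Kcnma1, the pore of the large-conductance channel and not a member, averaged 6.66 and 7.72 (1.06). The other higher members were Kcnk1, a leak channel, at 7.52 and 8.68 (1.16), and Kctd14, a protein with the tetramerization domain of potassium channels and no pore, at 6.84 and 8.23 (1.39). Outside the rule the family had 2 lower and 2 higher genes, Kctd19 (-1.24) and Kctd9 (-1.06, above 0 after re-centring) against Kctd12 (1.15) and Kcnma1.

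Chloride and anion channels, a family set by symbol that also takes in the TMC proteins, had 3 lower and 8 higher members. The lower ones were Tmc1, at 6.98 in wild-type mice and 5.63 in Ctcf-cKO mice (-1.35), Best1, at 10.02 and 8.69 (-1.33), and Tmc5, at 8.88 and 7.69 (-1.19). Tmc1 is known as part of the force-sensing cation channel of inner ear hair cells, so it is no anion channel, and Best1 codes for bestrophin, a calcium-activated chloride channel. All 3 were still below 0 after re-centring. The largest differences among the higher ones were those of Ttyh2, at 8.77 and 10.46 (1.69), Vdac1, at 7.93 and 9.53 (1.60), and Ttyh1, at 8.16 and 9.70 (1.54). Ttyh1 and Ttyh2 are tweety homologues linked to anion currents, and Vdac1 is the main pore of the mitochondrial outer membrane. The remaining 5, named after their values were seen, lay between 1.20 and 1.39: Clcn7 and Clcn5, chloride-proton exchangers of lysosomes and endosomes, Clic1, Ano6, a calcium-activated lipid scramblase and channel, and Clcn2, a chloride channel of the plasma membrane. Genes of the family's symbols outside the rule were split, with 2 lower and 2 higher. Cftr, the chloride channel altered in cystic fibrosis, averaged 8.31 and 6.65 (-1.66) and Ano5 differed by -1.18, and Ano4 and Clca2 both differed by 1.18.

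Ligand-gated channels had 1 member on each side. Cngb3, a subunit of the cyclic nucleotide-gated channel of cone cells, averaged 7.18 in wild-type mice and 5.82 in Ctcf-cKO mice (-1.36). Gria3, an AMPA-type glutamate receptor subunit, averaged 5.79 and 7.03 (1.24), and its row listed more than 1 symbol. Outside the rule, the ATP-gated channels P2rx3 (-1.70) and P2rx4 (1.29) were on opposite sides too.

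**Figure D2:**
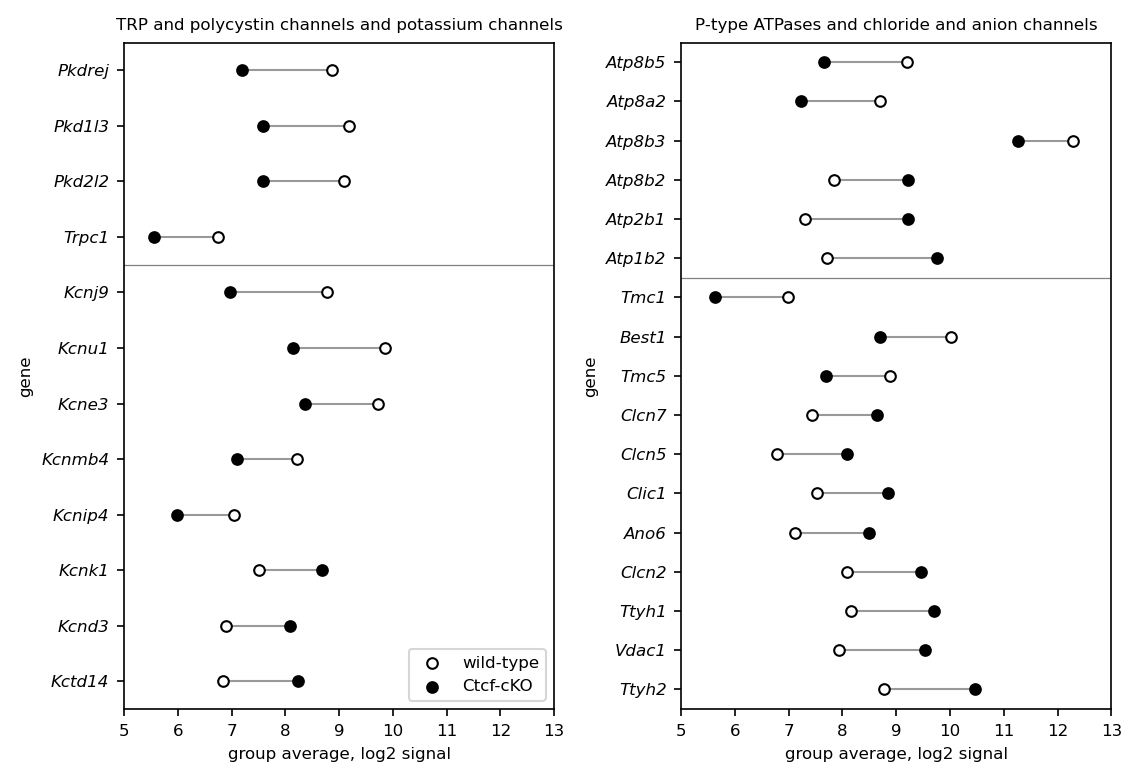
Group averages on the log2 scale (x axis) of the members of 4 families, with an open circle for wild-type (3 mice) and a filled circle for Ctcf-cKO (4 mice) joined by a line for each gene. Kcnu1 goes from 9.86 to 8.14 and Atp1b2 from 7.72 to 9.76; the lower members Kcnmb4, Kcnip4 and Atp8b3 change sign after re-centring.

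P-type pumps, which are phosphorylated in each cycle, had 3 lower and 3 higher members. The lower ones were all phospholipid flippases, which move lipids and not ions across the membrane. Atp8b5, a flippase known from testis, averaged 9.20 in wild-type mice and 7.66 in Ctcf-cKO mice (-1.54), Atp8a2 averaged 8.70 and 7.23 (-1.47), and Atp8b3, a flippase of the acrosome, averaged 12.28 and 11.26 (-1.02) and changed sign after re-centring. Another gene of the Atp8b stem, Atp8b2, was higher, at 7.84 and 9.21 (1.37).

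The members of ion-carrying P-type pumps were both higher. Atp2b1, the plasma membrane calcium pump of most tissues (chr10:98915152-99026143), averaged 7.31 in wild-type mice and 9.22 in Ctcf-cKO mice (1.91, 3.76-fold). Atp1b2, a beta subunit of the sodium-potassium pump (chr11:69599736-69605960), averaged 7.72 and 9.76 (2.04, 4.11-fold). The small FXYD proteins that tune the sodium-potassium pump were higher with it, Fxyd1 at 9.62 and 11.55 (1.93, 3.81-fold) and Fxyd6 at 8.95 and 10.31 (1.36). Atp1a4, the alpha subunit of this pump in sperm and not a member, was lower, at 11.62 and 10.28 (-1.34).

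The proton pump of lysosomes and other acid compartments, the V-type pump, had 3 members, all higher. Atp6v0a1, a subunit of its membrane sector, averaged 8.08 in wild-type mice and 9.62 in Ctcf-cKO mice (1.54), Atp6v0e, a small subunit of the same sector, averaged 8.47 and 9.84 (1.37), and the accessory protein Atp6ap1 averaged 7.88 and 9.41 (1.53). A second accessory protein outside the rule, Atp6ap2, was higher as well (1.28). The F-type ATP synthase of mitochondria had the ring subunit genes Atp5g2 and Atp5g3, both higher. Atp5g3 averaged 7.89 and 9.12 (1.23). Atp5g2 had 2 rows with nearly equal averages, one on chromosome 7 (9.40 and 10.57, the row used) and one on chromosome 15 (9.38 and 10.58).

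Iron and other metal carriers were higher throughout their family of 4. Ceruloplasmin (Cp), the copper-bearing enzyme that oxidises iron for export, averaged 6.46 in wild-type mice and 8.32 in Ctcf-cKO mice (1.86, 3.63-fold). Ftl1, the light chain of the iron store ferritin, averaged 8.46 and 10.28 (1.82, 3.53-fold), and Trf, the iron carrier transferrin, averaged 7.53 and 9.13 (1.60). Magt1, linked to magnesium transport, averaged 6.98 and 8.37 (1.39). The rows under LOC100862446 (8.80 and 10.70) and Mir692-3 (8.97 and 10.94) also list the ferritin light chain among their symbols, so these 3 members cannot be read as separate genes. Ftmt, a ferritin of mitochondria known from testis, was on the lower side (9.38 and 8.23); it was named after its values were seen.

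Calcium-binding proteins of membranes and vesicles were higher in all 5 cases. Anxa5, an annexin that binds phosphatidylserine (chr3:36448923-36475887), had the largest difference of all members, from 8.36 in wild-type mice to 10.54 in Ctcf-cKO mice (2.18, 4.53-fold). Doc2b, a calcium sensor of vesicle release, averaged 5.89 and 7.40 (1.51), and Anxa6 averaged 7.14 and 8.59 (1.45). The vesicle-release proteins Syt7, at 7.83 and 9.03, and Cadps, at 5.92 and 7.12, both differed by 1.20. Of 9 genes of the family's symbols outside the rule, 8 were higher and 1, the calcium-dependent kinase Camk4 (-1.16), was lower. Abca1, which exports cholesterol and is the only member of the ABC transporters (chr4:53030787-53159895), averaged 8.85 and 10.96 (2.11, 4.32-fold). Of 9 ABC transporter genes outside the rule, 5 were lower and 4 higher. Abca14, Abca15, Abca16 and Abca17 differed by -1.81 to -1.90 and Abcc12 by -1.48, and Abca3, Abca6, Abcd3 and Abcc1 by 1.34 to 1.60.

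Single channels and regulators completed the families. Itpr1, the inositol trisphosphate receptor that releases stored calcium, averaged 7.90 in wild-type mice and 9.10 in Ctcf-cKO mice (1.20), and the water channel Aqp2 averaged 7.72 and 8.76 (1.04). Of 4 aquaporin genes outside the rule, Aqp9 (-1.44), Aqp7 (-1.34) and Aqp11 (-1.06) were lower, the last above 0 after re-centring, and Aqp8 (1.97) was higher. The kinases and adaptors that act on channels were all higher, Cask at 6.04 and 7.54 (1.50), Wnk3 with a difference of 1.34 and Wnk4 at 7.35 and 8.46 (1.11). The WNK kinases regulate chloride cotransporters, and Cask is a scaffold at cell junctions. No gene with a sodium channel symbol had a row. The CatSper calcium channel of sperm had 8 subunit genes in the table and no member, since 7 of them carry an excluded term and the other none of the words of the rule. All 8 were lower, from -1.90 for Catsperb to -1.10 for Catsperg1; Catsperg1 is above 0 after re-centring.

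The 54 members outside these families, 15 lower and 39 higher, were sorted by role after their values were seen. Channel partners and other transporters had 8 lower and 7 higher. Tpte, a membrane phosphatase known from testis, averaged 7.62 in wild-type mice and 5.98 in Ctcf-cKO mice (-1.64, 3.12-fold), and Pdzk1, a scaffold of transporters, averaged 9.35 and 7.87 (-1.48). Receptors and signalling proteins had 1 lower and 7 higher. The lower one was Pde1c, a calcium-dependent phosphodiesterase, at 9.53 and 8.0 (-1.53). The vasopressin receptor Avpr1a (6.50 and 7.93) and the oxytocin receptor Oxtr (6.81 and 8.27) were among the higher, both picked once values were known, beside the G protein subunits Gnai2 (1.48) and Gnaq (1.14). All 5 proteins of exocytosis were higher.

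Genes of the same stem lay on both sides in the respiratory chain and in the TMEM63 family. Cox8c, a cytochrome oxidase subunit known from testis, averaged 11.36 in wild-type mice and 10.18 in Ctcf-cKO mice (-1.18), and Cox8a, its widely expressed relative, averaged 8.97 and 10.33 (1.36). The same division, seen once the values were known, held for the rest of the respiratory chain, with the testis form Cox7b2 lower (10.97 and 9.59) and Cox6b1 (1.31) and Ndufa4 (1.37) higher. Tmem63c averaged 8.44 and 7.43 (-1.01) and changed sign after re-centring, while its relatives Tmem63a, at 6.75 and 8.07 (1.32), and Tmem63b, at 6.72 and 7.81 (1.09), were higher. Sideroflexins and other metal handlers had 1 lower and 7 higher, and the last mixed group of calcium and response terms had 2 lower and 8 higher.

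The 6 members nearest to the 2-fold limit of the table were Tmem63c (2.01-fold), Atp8b3 (2.03-fold) and Kcnip4 (2.1-fold) on the lower side. On the higher side they were Aqp2 (2.06-fold), Sfxn2 (2.07-fold) and Ank (2.1-fold). Values of genes just outside the limit are not in the filtered table and were not analysed here.

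The lower and higher members differed in how widely they are listed as expressed. The table names the tissues in which expressed sequences of a gene had been recorded, and these were given for 30 of the 31 lower and all 76 higher members. Lower members had a median of 6 listed tissues and higher members a median of 26, and the medians over all coding genes were 3 for the lower and 24 for the higher. At least 20 tissues were listed for 2 lower members (6.67%) and 53 higher members (69.7%), beside 9.95% of all lower and 64.6% of all higher coding genes with a list. At most 5 were listed for 13 lower (43.3%) and 2 higher members (2.63%), beside 63.8% and 6.12%. Testis was on the list of 27 lower (90.0%) and 64 higher members (84.2%), beside 94.7% and 80.4%. The longer lists of the higher side were a property of the whole table, and it was examined after the values were seen.

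**Figure D3:**
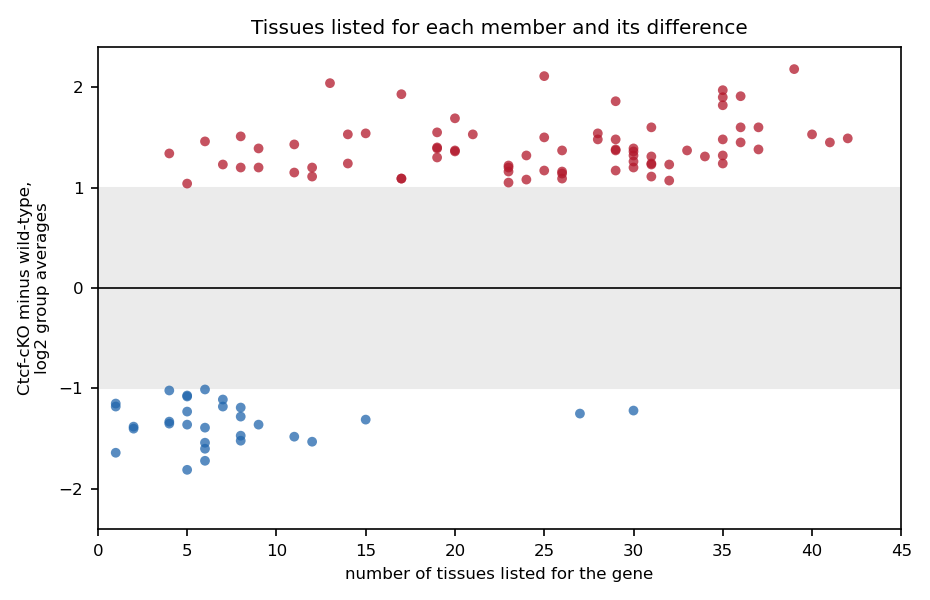
Number of tissues listed for each member (x axis) against its difference of log2 group averages (y axis, Ctcf-cKO minus wild-type), for the 30 lower (blue) and 76 higher (red) members with such a list; the grey band is the range within 2-fold that the table leaves out. Lower members have a median of 6 tissues and higher members of 26; 5 lower members change sign after re-centring.

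Cell compartments were read from component terms, which the rule did not use. The plasma membrane was named for 17 lower members (54.8%) and 40 higher members (52.6%), beside 6.08% of all lower and 22.6% of all higher coding genes. Lysosome terms were given for 1 lower (3.23%) and 10 higher members (13.2%), beside 0.286% and 5.24%, and synapse terms for none of the lower and 9 of the higher members (11.8%), beside 0.816% and 3.23%. The lysosomal group included Clcn7, Clcn5 and Anxa6. Mitochondrial terms were given for 3 lower (9.68%) and 13 higher members (17.1%), beside 2.98% and 13.2%. Terms of the endoplasmic or sarcoplasmic reticulum were given for 2 lower (6.45%) and 11 higher members (14.5%), beside 1.96% and 11.2%. A vacuolar term was given for 1 member, Atp6ap1. Terms of the cilium or flagellum were given for 3 lower members (9.68%), among them Pde1c and Tmc1, and for no higher member, beside 4.12% of all lower and 0.646% of all higher coding genes. Terms of the acrosome were given for 3 other lower members (9.68%), Atp8b3, Atp8b5 and Tex101, and for no higher member, beside 2.2% and 0.388%. The lean of both terms to the lower side was thus also that of the whole table. None of the last 6 reached 3-fold, and Atp8b3 changed sign after re-centring.

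By chromosome, the X carried 8 members, and all were higher, where the X as a whole had 187 lower and 180 higher coding genes. They included Atp6ap1, Cask, Clcn5, Gria3, Magt1, Wnk3 and Vamp7, the last on an unplaced X scaffold. Chromosome 11 had 9 members, all higher, beside 134 lower and 85 higher coding genes. Chromosome 12 had 2 members, both lower, beside 68 lower and 43 higher coding genes. Chromosomes 2, 13, 16 and 17 had 3, 3, 1 and 4 members, all higher. Their lower and higher coding genes were 139 and 110, 64 and 57, 56 and 41, and 97 and 60. Each other chromosome with members had them on both sides. Atp8a2 and Mtmr6, a phosphatase that acts on a potassium channel and is named after its values were seen, lie 68025 bases apart on chromosome 14 and differed by -1.47 and -1.22.

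Non-coding rows of the table lay over some members. On the strand of a member and overlapping its span at least in part lay 24 such rows over 15 members. These were 1 of the 31 lower and 14 of the 76 higher members, beside 102 of all 2450 lower and 227 of all 1547 higher coding genes. All 24 rows differed in the direction of the member. Over all coding genes, 550 of 553 such rows (99.5%) did so, so both the lean to the higher side and the shared direction were properties of the whole table. Kcnip4 had 3 of them, with differences from -1.25 to -1.53, though Kcnip4 itself is above 0 after re-centring. Atp2b1 also had 3, higher by 1.04 to 1.20. Abca1 had 1, at 6.98 in wild-type mice and 8.07 in Ctcf-cKO mice (1.09).

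Promoters were read from RefSeq sequences of build GRCm38.p6, from 250 bases before to 50 after the start, and were found for 21 lower and 56 higher members. The median share of G and C was 52.3% in the lower and 60.5% in the higher, beside 51.7% and 60.3% over all lower and all higher coding genes. The palindrome TCACGTGA, which forms the core of an element common to lysosomal gene promoters, was in none of the 21 and in 3 of the 56 (5.36%), beside 0.974% of all 32851 promoters and 1.63% of those of all higher coding genes. Its inner part CACGTG, so that each match of the longer motif is counted here too, was in none of the 21 and in 10 of the 56 (17.9%), beside 7.15% of all promoters and 9.02% of those of all higher coding genes. Of the other motifs searched on both strands, TGACGTCA, the cyclic AMP response element, was in 1 higher member, Rap1b (1.79%), and in 1.79% of all promoters. CAAGGTCA, the nuclear receptor half-site of NR5A1 and its relatives, was in 1 higher member, Atp5g3, and in 1.56% of all promoters. The core CTCF motif was in no member's promoter and in 0.916% of all. At so low a share, its absence from 21 and 56 promoters does not show that members lack CTCF sites. Sequence further from the start was not searched. A match is a description of letters and not a bound site.

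The 3 promoters with TCACGTGA belong to a proton pump subunit, a lysosomal chloride-proton exchanger and a metal carrier, all higher in Ctcf-cKO, and are shown because they are the members that share this longer motif. Capitals mark TCACGTGA. They lie at chr17:26676146-26676445 (plus strand) for Atp6v0e, chr17:25133141-25133440 (plus strand) for Clcn7 and chrX:106011753-106012052 (minus strand) for Magt1, and each is given from 5′ to 3′ on the strand of the gene.
Atp6v0e: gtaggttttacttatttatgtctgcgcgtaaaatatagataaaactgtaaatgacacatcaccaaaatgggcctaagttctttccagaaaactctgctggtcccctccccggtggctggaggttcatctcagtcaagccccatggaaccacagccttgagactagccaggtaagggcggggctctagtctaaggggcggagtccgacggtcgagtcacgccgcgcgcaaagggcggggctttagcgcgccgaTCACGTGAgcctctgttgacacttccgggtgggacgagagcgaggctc
Clcn7: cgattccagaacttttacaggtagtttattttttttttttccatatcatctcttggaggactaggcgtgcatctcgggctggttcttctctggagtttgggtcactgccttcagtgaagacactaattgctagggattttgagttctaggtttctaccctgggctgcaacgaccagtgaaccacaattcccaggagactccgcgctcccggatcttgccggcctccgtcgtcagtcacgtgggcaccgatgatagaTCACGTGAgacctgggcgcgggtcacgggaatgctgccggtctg
Magt1: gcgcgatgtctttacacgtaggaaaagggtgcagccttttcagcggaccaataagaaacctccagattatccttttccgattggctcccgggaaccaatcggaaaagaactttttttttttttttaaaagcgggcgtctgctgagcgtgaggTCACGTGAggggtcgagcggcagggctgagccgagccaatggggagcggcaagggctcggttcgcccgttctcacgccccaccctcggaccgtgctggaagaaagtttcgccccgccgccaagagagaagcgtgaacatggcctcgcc

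Markers of testis cell types moved with the members in both directions. Among germ cells, 7 of 8 markers of primary spermatocytes had a row, all lower, with a median of -1.31, and their summed signal was 12.62 in wild-type mice and 11.33 in Ctcf-cKO mice on the log2 scale; the brightest was Piwil1, and Sycp3 had no row. All 7 markers of round spermatids were lower, with a median of -1.23 and a summed signal of 13.01 and 11.75, and the brightest in Ctcf-cKO mice was Acr and in wild-type mice Spag6; the list includes the member Tex101. Of 10 markers of elongating spermatids, 3 had a row, all lower, with a median of -1.03 and a summed signal of 12.05 and 11.02, Akap4 being the brightest. Their median is above 0 after re-centring. The protamines Prm1 and Prm2 had no row.

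Markers of somatic cells were higher wherever they had a row. Leydig cells had 8 of 9, with a median of 2.00 and a summed signal of 12.96 in wild-type mice and 14.86 in Ctcf-cKO mice, Cyp17a1 being the brightest and Insl3 without a row. Leydig cells lie outside the tubules, and their markers had signal in both genotypes of the labelled tubules. Sertoli cells had 9 of 11, with a median of 1.62 and a summed signal of 12.38 and 14.01, Clu being the brightest and Amh and Rhox5 without a row. Macrophages had 5 of 9, with a median of 1.59 and a summed signal of 9.71 and 11.36, Lyz2 being the brightest in Ctcf-cKO and Mrc1 in wild-type mice, and Adgre1, C1qa, Cd14 and Cd163 without a row. Peritubular cells had 3 of 5, with a median of 1.07 and a summed signal of 10.24 and 11.55, Acta2 being the brightest and Cnn1 and Des without a row. Endothelial cells had 2 of 7, with a median of 1.12 and a summed signal of 7.70 and 8.83, Cdh5 being the brightest and Pecam1, Tek, Tie1, Vwf and Emcn without a row. Of 6 markers of spermatogonia only Kit had a row, at 7.81 and 10.09 (2.28), and Leydig cells are known to express Kit too. The part of these cell types in the differences of the ion channel and pump genes was not tested.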

How the data were processed

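RNA of 3 wild-type and 4 Ctcf-cKO testes was measured on Affymetrix MTA 1.0 arrays. The submitters' processing notes name Affymetrix Expression Console 1.4.1, RMA, Transcriptome Analysis Console 3.0 and the build mm10. The deposited table, in a unit other than counts, holds for each genotype the authors' bi-weight average of log2 array signal, written with decimal commas, limited to rows at a fold of at least 2 with an unadjusted p of 0.05. Further columns hold the authors' fold change and p-values, which were not used. Single-array values are not analysed here, so the planned limma fit was not run, and averages were subtracted (Python 3.11.15, pandas 2.3.3, numpy 2.4.6; figures with matplotlib 3.10.9). Symbols are those of the table, and for several rows of a gene the row with the highest mean was used. The steps were tested on simulated data.

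Members and lists were chosen with earlier results of these data known. Named genes were the 10 largest differences in each direction, the 3 largest per family and direction (members outside the families counted as 1 family), all members of families of up to 8, members of the same stem on both sides, the 3 nearest the limit in each direction, and Ctcf. Members outside this rule, the non-members named beside a family, the roles of members outside the families and the tissue counts were chosen after values were seen. Some genes are not reported here. Alternatives changed the fold, signal, class, symbols, rows, centring, terms and chromosomes.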

Additional observations from a re-analysis of the deposited data

How the results depend on the processing

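No test was run, so the statements below concern counts and medians. No paired analysis was possible because the table holds 1 average per genotype; for the same reason centring single arrays, leaving out mice, a block by mouse number and a limma fit with a filter on dim rows could not be run. The 31 lower and 76 higher members and their medians gave the same values, or counts within 1.5 times, with a log2 average of at least 6 required, with every symbol of a row, with the row of the largest difference, with rows of equal values counted once, with ferritin light chain rows counted once and without the term of mitochondrion transport; the last 2 were chosen after seeing the data.

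At a linear fold of at least 3, counts became 5 lower and 13 higher, by construction, with medians of -1.66 and 1.90; 2 families had lower members only and 0 had both. Components then held 4 lower and 8 higher members at the plasma membrane, 0 and 1 at the mitochondrion, 0 and 1 at the lysosome, 0 and 0 at the reticulum, 0 higher at the synapse, 0 lower at the cilium or flagellum and 0 lower at the acrosome. With class Coding alone, 16 were lower (median -1.36) and 24 higher; 5 families had higher members only, 3 lower only and 1 both, with fewer genes counted. Re-centred on the median of all rows, 0 members were lower by 2-fold, so no median could be given for them, and the median of the higher was 2.52; 0 families had lower members only and 0 had both. Members annotated as channel or pump numbered 18 lower (median -1.38) and 21 higher. With terms of transport only, the median of the lower members was -1.36. Without X and Y, 2 families had lower members only. With genes of an excluded term kept, chosen after seeing the data, 2 families had lower members only and the median of the lower was -1.36. On the strand of the gene alone, CAAGGTCA was in 0 higher members' promoters. How far array background compresses the differences of dim members was not tested; 0 members averaged under 6 in both genotypes.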
